A study of Mus musculus with 6 samples.

Results

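Cytosolic ribosomal proteins are the protein building blocks of the large and small subunits of the ribosome that translates nuclear-encoded mRNA. Their genes were taken as the annotated entries of the gene table whose symbol begins with Rpl, Rps or Rplp followed by a digit. S6 kinase symbols and symbols of processed copies marked "-ps" were left out, and a summed count of at least 60 over the 6 libraries was required. This gave 82 of the 24459 genes in the table, 49 with Rpl or Rplp symbols (large subunit) and 33 with Rps symbols (small subunit). The values came from tissue around the blood clot (perihematomal brain tissue) of mice labelled WT, taken on day 5 after an intracerebral haemorrhage, a bleed into the brain. The mice received TEPP-46, an activator of pyruvate kinase M2, or vehicle on 5 consecutive days after the haemorrhage. Each group had 3 libraries, T1, T2 and T3 for TEPP-46 and C1, C2 and C4 for vehicle (read from the first letters and the 2 group names alone, so that every direction given here rests on that reading), made from total RNA as PCR-amplified cDNA for nanopore sequencing. All mice had the haemorrhage, and no mice without it were analysed here. Whether each library came from its own animal is not stated in the labels, and p-values here measure the spread among libraries, which may be technical.

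A ribosome holds 1 copy of nearly every ribosomal protein, and cells make these proteins in matched amounts. Most of their mRNAs begin with a terminal oligopyrimidine, a run of C and T bases at the very start of transcription, which lets the mTORC1 kinase pathway control their translation as a group. In the brain they are made by every cell type. In bulk tissue samples such as these, fewer cells of a type and less RNA per cell cannot be told apart.

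The starts of 8 members are shown because the feature that defines the group's translational control lies there and because these members carry the results that follow. Each line gives 10 bases before and 20 bases after the annotated start, on the coding strand (RefSeq, GRCm38.p6). Capitals mark a run of at least 6 C or T bases that touches the 5 bases on either side of the start. Lower case alone means that no such run touches those bases. Runs farther from the annotated start, as in Rps12, are left in lower case.
Rpl38, chr11:114668570-114668599: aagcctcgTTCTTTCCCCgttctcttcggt
Rps21, chr2:180257369-180257398: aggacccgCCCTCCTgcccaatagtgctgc
Rps27, chr3:90213629-90213658: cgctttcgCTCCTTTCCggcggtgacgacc
Rps28, chr17:33824543-33824572: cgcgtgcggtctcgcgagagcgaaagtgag
Rps24, chr14:24490668-24490697: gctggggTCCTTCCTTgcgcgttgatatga
Rps12, chr10:23787190-23787219: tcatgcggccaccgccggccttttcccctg
Rpl18, chr7:45718061-45718090: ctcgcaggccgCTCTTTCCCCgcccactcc
Rps2, chr17:24720053-24720082: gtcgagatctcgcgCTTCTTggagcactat
A start sequence was found for 62 of the 82 members, in 73 windows. A run of this kind was present in 28 of the 73 windows (38.4%) and in 4498 of the 32851 windows of all genes (13.7%). A match describes letters near an annotated start and is not evidence of a functional element.

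The number of counts per library lay between 5286426 and 6025064. Markers of several cell types differed between libraries of the same group. Summed over 12 microglia genes such as Cx3cr1 and Tmem119, the level was 1337 CPM (counts per 1e+06 counts of the library) in T1, 2018 in T2 and 2285 in T3, against 1330 in C1, 3405 in C2 and 853 in C4. Library C4 stood apart by its 10 myelin and oligodendrocyte genes, which summed to 5427 CPM, against 13302 to 15503 CPM in the other 5 libraries. Genes of the choroid plexus and ependyma summed to 2266 to 4000 CPM in the TEPP-46 libraries, against 4989 (C1), 231 (C2) and 187 CPM (C4). Neuronal genes, by contrast, summed to 7511 to 9078 CPM in TEPP-46 and 7791 to 9196 CPM in vehicle. Of the 12 cell type lists, none had a gene with 0 counts in every library among those found in the table.

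Together the ribosomal protein genes took 8.38% of all counts in T1, 9.09% in T2 and 9.73% in T3, against 8.44% in C1, 9.72% in C2 and 8.07% in C4. The groups overlapped over nearly their whole range, with T3 and C2 high and C4, T1 and C1 low. The mean share was 9.07 ± 0.673% with TEPP-46 and 8.75 ± 0.868% with vehicle (SD, n = 3 each). The difference of 0.321 percentage points was smaller than either SD (two-sided exact permutation p = 0.7, with 0.1 the smallest p that 3 against 3 allows). It was -0.0163 points without C4, -0.0094 points without T3 and 0.811 points without C2. Exact binomial 95% intervals of these shares are narrow, such as 8.36 to 8.41% in T1, but leave out the spread between libraries. They also take every count as a separate read. Isoforms of a gene share reads here, so the intervals may not cover counting error in full. With the most abundant isoform of each gene alone, the share was 6.86, 7.38 and 7.82% in T1, T2 and T3. It was 6.75, 7.77 and 6.41% in C1, C2 and C4.

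The balance between the subunits was close to the same in all 6 libraries. Large-subunit genes made up 62.1%, 61.6% and 61.1% of the member counts in T1, T2 and T3, against 61.7%, 61.5% and 61.9% in C1, C2 and C4. The means were 61.6 ± 0.496% with TEPP-46 and 61.7 ± 0.216% with vehicle (SD, n = 3 each; two-sided exact permutation p = 0.8). In each subunit taken alone, T3 and C2 were the 2 highest libraries and C4 the lowest.

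**Figure D1:**
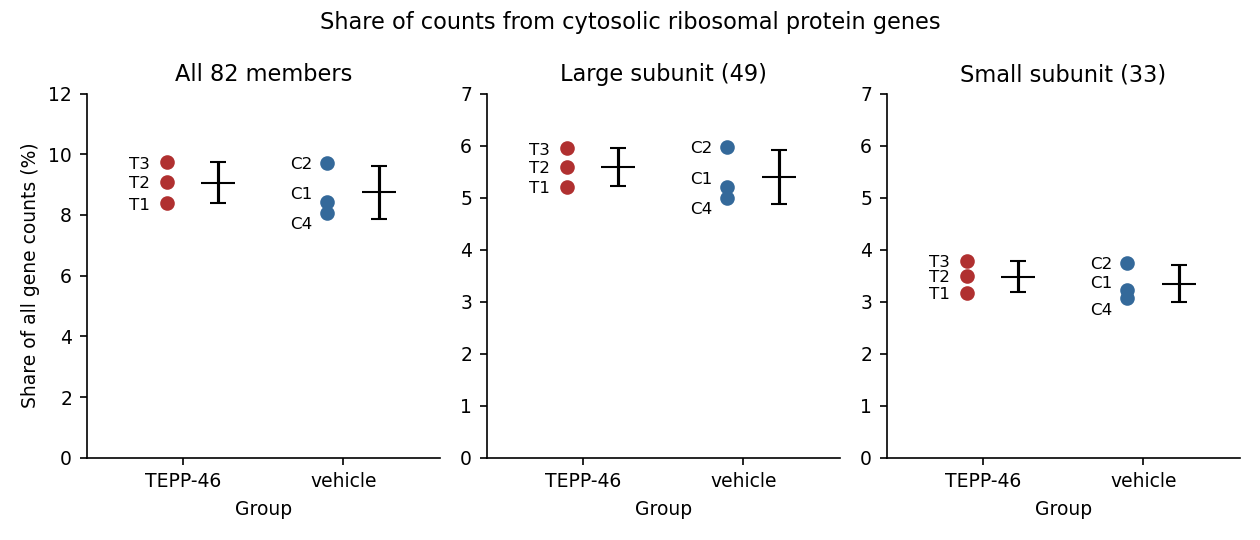
Share of all gene counts (y axis, percent) taken by the 82 members and by the large- and small-subunit genes in each TEPP-46 and vehicle library; points are libraries and the bars to their right the mean and SD (n = 3). T3 and C2 are the 2 highest libraries and C4 the lowest in each panel.

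No ribosomal protein gene passed the test for a difference between TEPP-46 and vehicle. All 82 passed the low-count filter, and the quasi-likelihood test of edgeR, adjusted over 14441 genes by Benjamini-Hochberg, called 0 of them at an adjusted p under 0.05 (background 0 of 14441, percent called 0). None had an unadjusted p under 0.05, where 5.87% of all tested genes did, 1.95% higher and 3.93% lower with TEPP-46. None had groups that did not overlap, where 11.4% of all tested genes did. DESeq2 also called 0 members, where it called 85 of 15424 genes (0.551%). The smallest adjusted p among the members was 0.966.

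The fold changes were small and alike. Over the 82 members, the log2 fold change of TEPP-46 over vehicle ran from -0.35 to 0.23 with a median of 0.04, and 61 members lay within 0.1 of 0. The standard error of a single member was 0.10 to 0.26 on the log2 scale, with a median of 0.13. The values were positive for 65 members and negative for 17, or 79.3% positive against 51.5% of all tested genes. Medians were 0.05 for large-subunit and 0.04 for small-subunit genes, with 40 of 49 and 25 of 33 values positive. That excess of positive values rested on single libraries: 33 of 82 were positive without C4 (median -0.01) and 31 without T3 (median -0.02), against 75 without C2 (median 0.14). Without C2, 4 members reached an unadjusted p under 0.05, where 10.2% of all genes did, and without T3 it was 1 member, where 5.53% did. The adjusted test called no member without C2 either, where it called 0.291% of all genes.

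**Figure D2:**
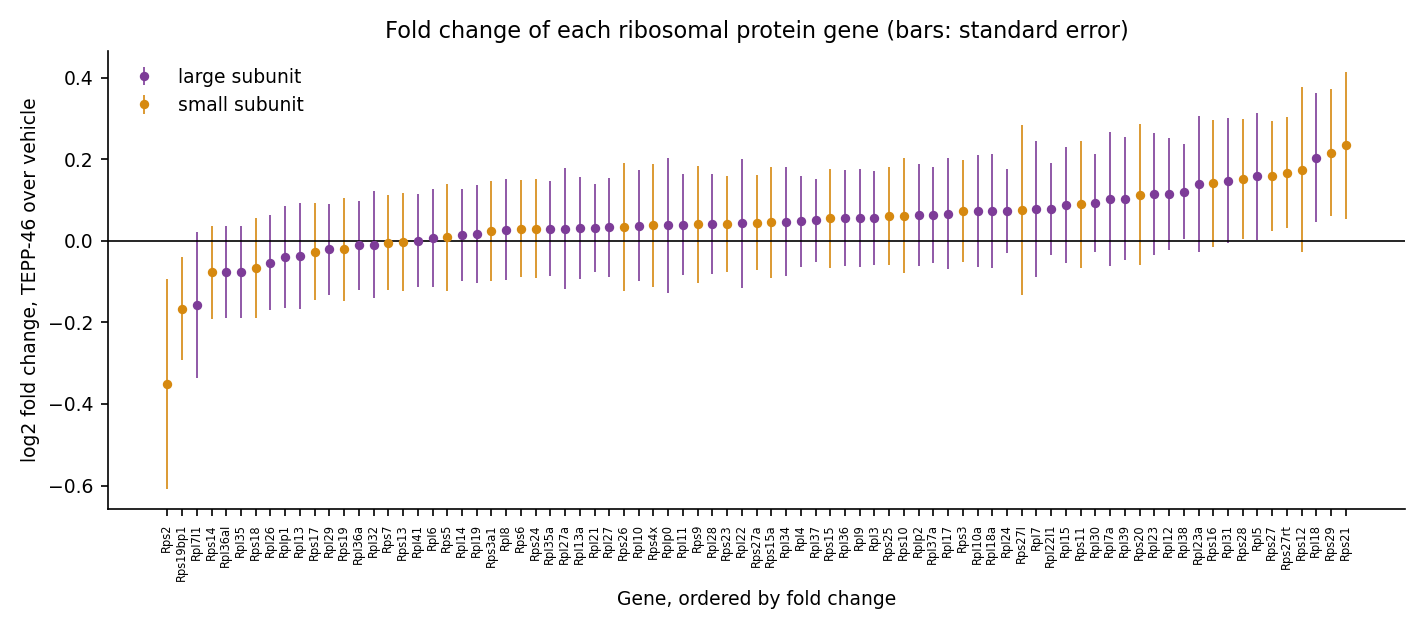
Log2 fold change of TEPP-46 over vehicle (y axis) for 81 of the 82 genes in rising order, coloured by the subunit its symbol names; bars are standard errors of the edgeR fit. Values run from -0.35 for Rps2 to 0.23 for Rps21, and most bars cross 0.

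Among proteins of the small subunit, the positive side held Rps21 and Rps29, among the shortest mRNAs of the group. Rps21 (chr2:180257377-180258445) had 1247, 1427 and 1419 CPM in T1, T2 and T3, against 1309, 1324 and 822 CPM in C1, C2 and C4. It was low in C4 alone, and its other 5 libraries overlapped. Its log2 fold change was 0.23 with a standard error of 0.18 (edgeR adjusted p = 0.973), with 0.04 without C4 and 0.35 without C2. Rps29 (chr12:69157722-69159186) had 1160, 1341 and 1259 CPM in TEPP-46, against 1243, 1142 and 832 CPM in C1, C2 and C4. Again the low value was that of C4, and the log2 fold change was 0.22 with a standard error of 0.15 (adjusted p = 0.966), with 0.06 without C4 and 0.33 without C1.

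Rps27, a zinc-finger protein of the small subunit, and its near-identical copy Rps27rt moved in parallel. Their most abundant isoforms had nearly the same count in every library, so they are not separate measurements. Rps27 had 2408, 2675 and 2789 CPM in TEPP-46, against 2605, 2476 and 1923 CPM in vehicle. Rps27rt had 614, 672 and 712 CPM in TEPP-46, against 655, 624 and 489 CPM in vehicle. Both were lowest in C4, and their log2 fold changes of 0.16 and 0.17 carried standard errors of 0.14 each (adjusted p = 0.975 for both). Without C4 the values were 0.04 and 0.05, and without C1 both were 0.24. Rpl18, a protein of the large subunit, had 296, 337 and 415 CPM in TEPP-46, against 293, 346 and 265 CPM in vehicle. Its high library was T3, and its log2 fold change was 0.20 with a standard error of 0.16 (adjusted p = 0.975), with 0.06 without T3, 0.12 without C4, 0.31 without T1 and 0.32 without C2.

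On the negative side, Rps2 (chr17:24718116-24721929), a core protein of the small subunit near the mRNA entry, was the most variable member. It had 805 CPM in T1, 1373 in T2 and 1695 in T3, against 1343 in C1, 1893 in C2 and 1668 in C4. T1 lay 0.81 below the gene's own mean on the log2 scale, where the average member lay 0.08 below. The log2 fold change was -0.35 with a standard error of 0.26 (adjusted p = 0.966). It was -0.11 without T1, -0.23 without C2 and -0.59 without T3. The isoforms Rps2-201, Rps2-206 and Rps2-208 were all lowest in T1, with 1663, 1338 and 1640 counts there. Isoforms of a gene share reads in these counts, so this repeats the gene count and adds no separate measurement.

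Rps19bp1 met the rule by its symbol, but it encodes a binding partner of RPS19 and is not itself a ribosomal protein. It had 90.1, 111 and 101 CPM in TEPP-46, against 114, 109 and 114 CPM in vehicle. T2 lay within the vehicle range, and the log2 fold change was -0.17 with a standard error of 0.13 (adjusted p = 0.971), with -0.09 without T1 and -0.25 without T2. Rps14, a small-subunit protein whose human gene is lost in a form of myelodysplasia, had 2046, 1996 and 2249 CPM in TEPP-46, against 1965, 2244 and 2377 CPM in vehicle. Its log2 fold change was -0.08 with a standard error of 0.11 (adjusted p = 0.992), with -0.02 without C4, -0.05 without T2, -0.13 without T3 and -0.16 without C1.

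The 3 proteins of the P-stalk, the flexible arm of the large subunit that recruits elongation factors, gave no call either. Rplp0, its base, had 265, 277 and 339 CPM in TEPP-46, against 249, 348 and 254 CPM in vehicle. Rplp1 had 1056, 1113 and 1201 CPM in TEPP-46, against 1057, 1309 and 1072 CPM in vehicle. Rplp2 had 1171, 1278 and 1331 CPM in TEPP-46, against 1111, 1367 and 1113 CPM in vehicle. In each case C2 and T3 were the 2 highest libraries, and the log2 fold changes were 0.04, -0.04 and 0.06.

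Proteins of the ribosome whose symbols fall outside the rule showed the same overlap. Rpsa, a small-subunit protein also known as a laminin receptor precursor, had 748, 821 and 1108 CPM in TEPP-46, against 722, 971 and 648 CPM in vehicle. Fau, which encodes a ribosomal protein fused to a ubiquitin-like protein, had 1645 to 1869 CPM in TEPP-46, against 1592 to 2004 CPM in vehicle. Rack1, a signalling scaffold on the small subunit, had 34.9, 57.3 and 49.6 CPM in TEPP-46, against 34.3, 53.9 and 47.7 CPM in vehicle. None of these 3 had an unadjusted p under 0.05.

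Paralogues, which can replace a standard protein in part of a cell's ribosomes, had ratios to the standard gene that overlapped between the treatments. In mice, Rpl22 protein is known to hold down its paralogue Rpl22l1. The count of Rpl22l1 over that of Rpl22 was 2.30, 2.19 and 2.35 in TEPP-46, against 2.29, 1.83 and 2.75 in vehicle. The vehicle libraries held both the lowest and the highest ratio (mean 2.28 ± 0.0839 with TEPP-46 and 2.29 ± 0.458 with vehicle; SD, n = 3 each; two-sided exact permutation p = 1.0). Rpl36al over Rpl36a was 0.250 ± 0.0114 with TEPP-46 and 0.262 ± 0.0292 with vehicle (SD, n = 3 each; two-sided exact permutation p = 0.6). Rpl7l1, a relative of Rpl7, stood at 0.0744 ± 0.0136 of Rpl7 with TEPP-46 and 0.0869 ± 0.00523 with vehicle (SD, n = 3 each; two-sided exact permutation p = 0.3). Rps27l, a p53-responsive relative of Rps27, had 70.5, 93.0 and 110 CPM in TEPP-46, against 80.9, 106 and 70.0 CPM in vehicle. Over the 9 pairs compared, counting pairs with processed copies, every adjusted p was 1.0.

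The paralogues Rpl10l, Rpl39l and Rpl3l fell below the count minimum. Rpl10l, a testis form of Rpl10, had no count in any library, which allows up to 3 counts in each. Rpl39l and Rpl3l had 14 counts each over all 6 libraries. The members just inside the minimum were far from it, with summed counts of 804 for Rpl7l1, 2938 for Rps27l and 3533 for Rps19bp1.

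Although the treatments did not separate, the members moved together from library to library. Relative to its own mean over the 6 libraries, the average member lay at -0.08 in T1, 0.03 in T2 and 0.15 in T3, against -0.09 in C1, 0.15 in C2 and -0.16 in C4 (log2 CPM). T3 was above a gene's own mean in 80 of 82 members and C2 in 79, while T1 was above it in 5, C1 in 11 and C4 in 11. The highest library was C2 or T3 for 74 members, and the lowest was C1, C4 or T1 for 81. A first principal component took 72.1% of the variance of the members' log2 CPM and a second 18.5%. The log2 CPM of 61 members (74.4%) correlated with the mean of the members at r above 0.8 over the 6 libraries, as did 6.73% of 6468 other genes with a mean count of at least 100. These correlations describe 6 shared libraries, and each member is part of the mean it is set against.

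**Figure D3:**
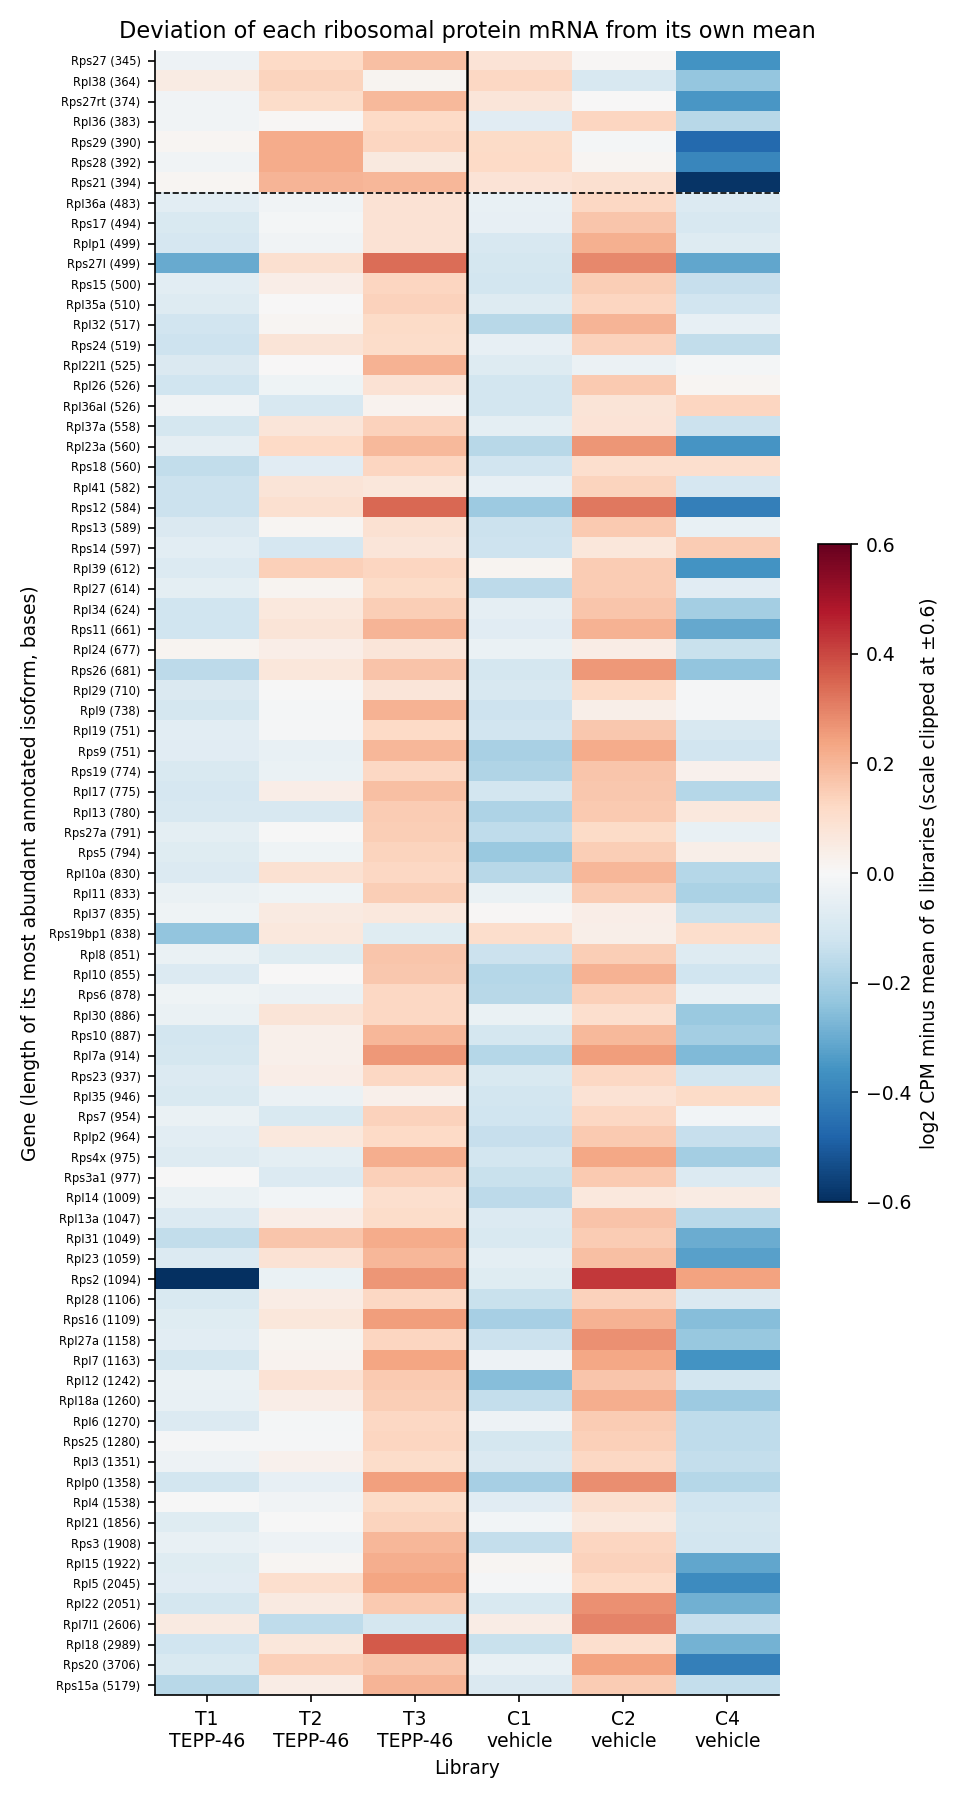
Log2 CPM of 81 of the 82 members, each minus its own mean over the 6 libraries (colour, clipped at 0.6), with TEPP-46 libraries left of the line and vehicle libraries right of it; genes run from the shortest to the longest mRNA. T3 and C2 are above the mean for nearly all genes, and Rps2 is the darkest cell of T1. C4 is the lowest library in each of the 7 shortest genes above the dashed line and in many longer genes.

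Several cell type lists had high and low libraries in common with the members. From lowest to highest, the average member ran C4, C1, T1, T2, T3, C2. The summed CPM of 4 of the 12 cell type lists ran in the same order. The 4 lists were microglia, activated microglia and macrophages, monocytes and neutrophils, and red blood cells. The members' C1 and T1 lay within 0.01 of each other, as did T3 and C2. By share of counts the order was C4, T1, C1, T2, C2, T3, which none of these 4 lists had. The oligodendrocyte precursor list had it, with 225, 255 and 302 CPM in TEPP-46, against 246, 291 and 130 CPM in vehicle. The 14 elongation and termination factors ran in that order too. Activated microglia and macrophage genes such as Spp1 and Gpnmb summed to 11114, 16442 and 20538 CPM in TEPP-46, against 10860, 27617 and 9476 CPM in vehicle. Monocyte and neutrophil genes summed to 15.1, 30.6 and 55.2 CPM in TEPP-46, against 11.0, 64.2 and 3.03 CPM in vehicle. Haemoglobin and other red blood cell genes summed to 560, 645 and 748 CPM in TEPP-46, against 458, 1053 and 319 CPM in vehicle. The spread of these 4 lists between libraries was 2.91- to 21.2-fold, against 8.07 to 9.73% for the share of the members. Oligodendrocyte precursor genes spread 2.32-fold. The part of any of these lists in the members' level was not tested.

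**Figure D4:**
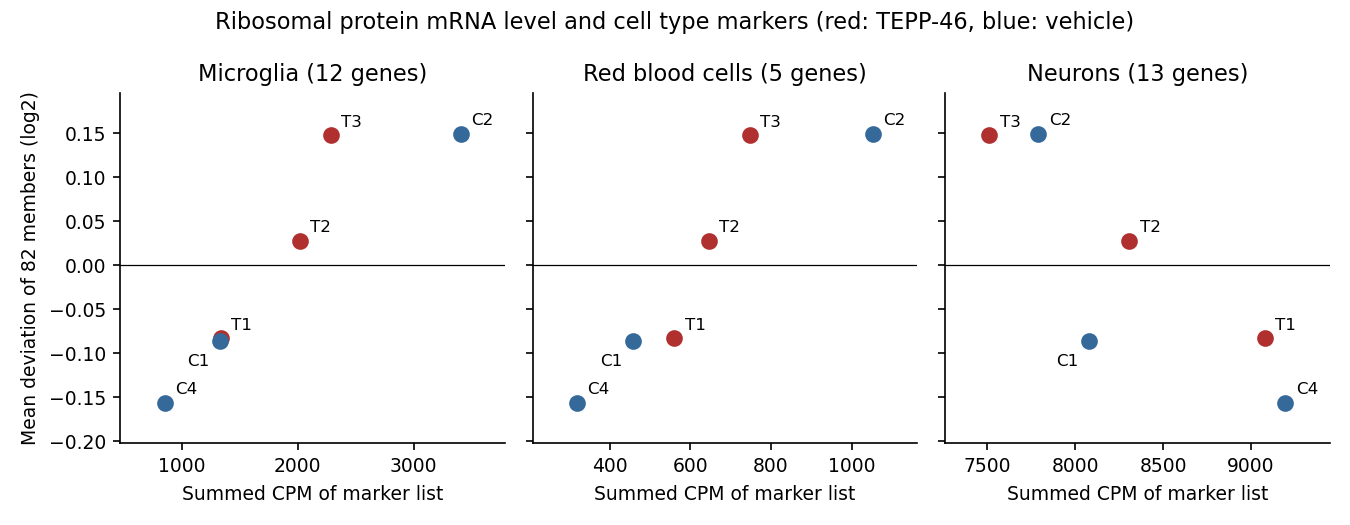
Mean deviation of the 82 members (y axis, log2) against the summed CPM of 3 marker lists (x axes), 1 point for each library, TEPP-46 in red and vehicle in blue. T3 and C2 are high and C4 low on both axes for microglia and red blood cells, and for neurons T3 and C2 have the lowest and C4 the highest marker level.

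The genes whose level over the 6 libraries was most like the mean of the members were RPS10-NUDT3 (r = 0.998), Serpinb6a (0.997), Lap3 (0.992), Eef1b2 (0.991) and Gm45713 (0.990), with the other 5 of the 10 being new loci without a symbol. RPS10-NUDT3 is a readthrough entry that shares exons with Rps10, so the match is not an independent one. Gm45713 likewise shares annotated exons with Rpl13a. Eef1b2 encodes a subunit of elongation factor eEF1B, whose mRNA also begins with a terminal oligopyrimidine. It had 357, 408 and 437 CPM in TEPP-46, against 352, 452 and 335 CPM in vehicle.

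A few members stood outside the common pattern. The lowest correlations with the members' mean were those of Rps19bp1 (r = -0.11), Rpl36al (0.05), Rps14 (0.14), Rpl38 (0.14) and Rpl35 (0.26). Rpl38, a large-subunit protein needed in mouse embryos for the translation of Hox mRNAs, had 3503, 3714 and 3422 CPM in TEPP-46, against 3688, 3163 and 2879 CPM in vehicle. It was thus high in C1 and below its own mean in C2, where most members were high. Its log2 fold change was 0.12 with a standard error of 0.12 (adjusted p = 0.982). The median coefficient of variation of a member over the 6 libraries was 9.31%, against 11.3% for the 1839 genes with a mean of at least 100 CPM. It exceeded 20% in Rps2 (26.2%) and Rps12 (20.8%) alone. Rps12 had 1243, 1450 and 1725 CPM in TEPP-46, against 1167, 1693 and 1024 CPM in vehicle.

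The members with the shortest mRNAs shared a further pattern. The 7 members whose most abundant annotated isoform has at most 400 bases were Rps27 (345 bases), Rpl38 (364), Rps27rt (374), Rpl36 (383), Rps29 (390), Rps28 (392) and Rps21 (394). Rps27 and Rps27rt, each counted here, are not separate measurements. All 7 were lowest in C4, as were 41 of the other 75 members, and their median deviation was -0.02 in T1, 0.14 in T2 and 0.13 in T3, against 0.08 in C1, 0.01 in C2 and -0.36 in C4 (log2 CPM). In C1, 6 of the 7 lay above their own mean, against 5 of the other 75 members. In C2, by contrast, 5 of the 7 lay above it, against 74 of the other 75. For comparison, 16 other genes had isoforms of at most 400 bases and at least 5 CPM. Their median deviation was -0.11 in T1, 0.08 in T2 and -0.05 in T3, against 0.08 in C1, -0.10 in C2 and 0.01 in C4. In C1 it was thus close to that of the short members.

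Rps28 illustrates it with 1453, 1723 and 1539 CPM in TEPP-46, against 1605, 1487 and 1126 CPM in vehicle. Fold changes were positive for all 7 short members (median log2 value 0.16) and for 58 of the other 75 (median 0.04). They include 4 of the 5 members with the smallest p among positive values (Rps29, Rps21, Rps27rt and Rps27). Their summed share of counts was 1.11, 1.23 and 1.19% in T1, T2 and T3, against 0.872 to 1.18% in the vehicle libraries (two-sided exact permutation p = 0.2, n = 3 each). C4 is also the library with the low myelin genes, and their part in this pattern was not tested.

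**Figure D5:**
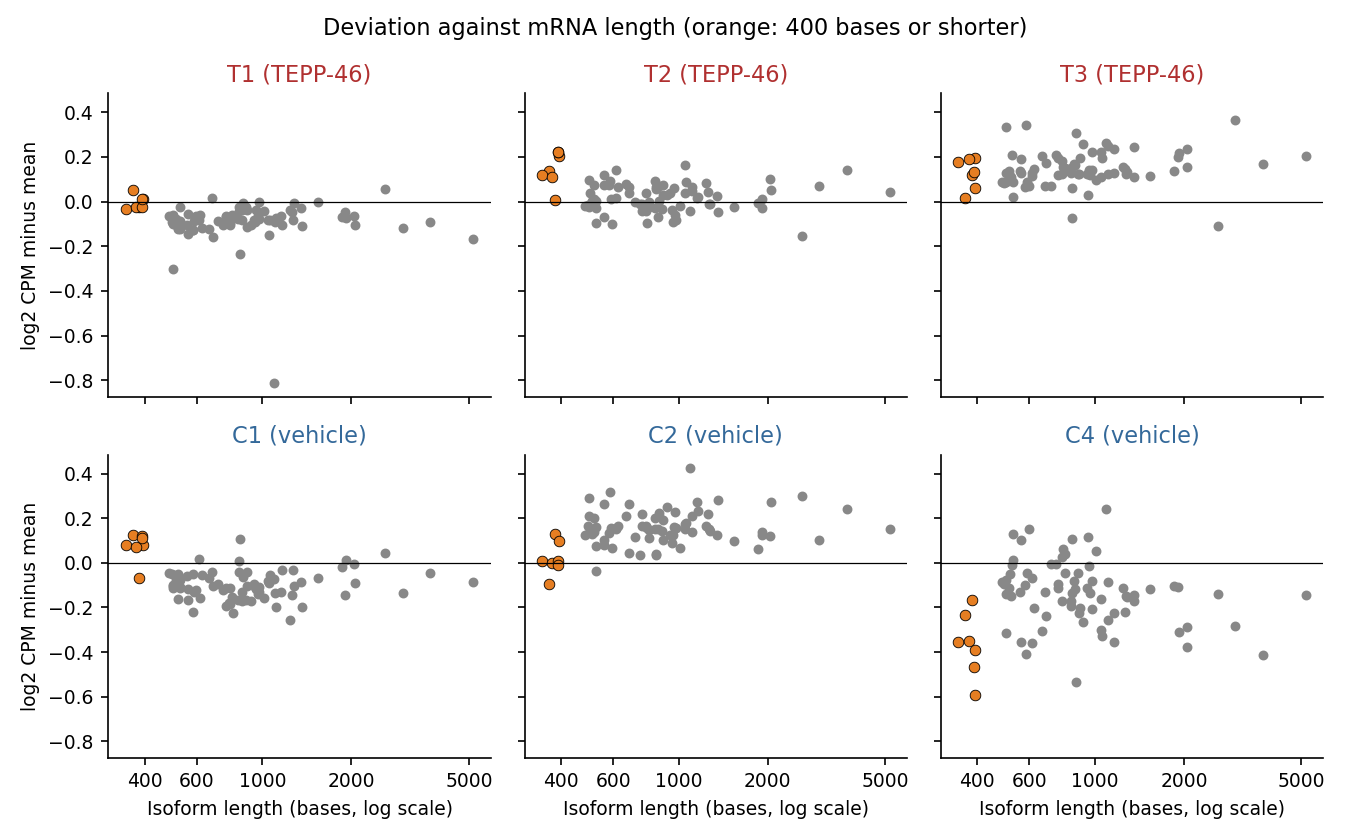
Deviation of each member from its own mean (y axis, log2 CPM) against the length of its most abundant annotated isoform (x axis, log scale), 1 panel for each library with TEPP-46 above vehicle. The 7 members of at most 400 bases, in orange, lie below most others in C4 (median -0.36) and above most others in C1 (0.08).

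Levels between genes can be compared only roughly, since isoforms of a gene share reads in this table. The gene count equalled the sum of its isoform counts in all 82 members, and the members had 1 to 12 isoforms with a median of 4. In 23 of 69 members with at least 2 isoforms, the counts of the 2 most abundant isoforms differed by less than 5% in every library. Rpl22-204 and Rpl22-208 had the same count in each library, 931, 963 and 972 in TEPP-46 and 831, 1130 and 740 in vehicle. The count of a gene rose with its number of isoforms (Spearman's rho 0.45 over 82 members), whereas the count of its most abundant isoform did not (rho 0.00). Since the gene count is a sum over isoforms, these correlations alone do not show that reads were shared.

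Some copies of a gene elsewhere in the genome had counts of this kind too. Rps27rt-201, on chromosome 9, had 3698, 3781 and 3781 counts in TEPP-46 and 3500, 3555 and 2585 in vehicle. Rps27-201, on chromosome 3, had 3696, 3779 and 3780 counts in TEPP-46 and 3499, 3555 and 2585 in vehicle. The processed copies Rps12-ps3, Rpl10-ps3 and Rpl9-ps6 stood at 0.969 to 0.990, 0.982 to 0.985 and 0.986 to 0.991 of the most abundant isoform of Rps12, Rpl10 and Rpl9. Other copies did not, with Rpl36a-ps1 at 0.0953 to 0.116 of the most abundant isoform of Rpl36a, and with 69, 25 and 3 counts over all libraries for Rpl13a-ps1, Rpl9-ps1 and Rpl36-ps4. Levels of Rps27, Rps12, Rpl10 and Rpl9 and of their near-equal copies are therefore not separate measurements.

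By CPM of the gene, the most abundant members were Rpl41 (6426 ± 498 in TEPP-46 and 6381 ± 554 in vehicle), which encodes a very short peptide, and Rps24 (4012 ± 340 and 3903 ± 401; SD, n = 3 each). Rpl38, Rpl35a and Rps27 followed, with Rpl35a at 2948 ± 225 CPM in TEPP-46 and 2867 ± 269 CPM in vehicle. This order depends on the number of isoforms summed. By mean CPM of the most abundant isoform alone, Rpl41 had rank 1 of 82, Rpl38 rank 6, Rpl35a rank 11, Rps27 rank 16 and Rps24 rank 18. Per kilobase of the most abundant annotated isoform, the order was Rps29 (2982 CPM per kb over all 6 libraries), Rplp1 (2274), Rpl41 (2156), Rpl38 (2091) and Rps27 (1819), against a median of 527 over the 82 members. Division by length favours short mRNAs, and whether counts grow with length in these nanopore libraries was not tested. The lowest gene levels were those of Rpl7l1, Rps27l, Rps19bp1, Rpl5 and Rps20. Rpl5, which binds the 5S ribosomal RNA, had 145, 163 and 179 CPM in TEPP-46, against 152, 165 and 117 CPM in vehicle. Rpl7l1 had 24.9, 21.5 and 22.2 CPM in TEPP-46, against 24.7, 29.5 and 21.8 CPM in vehicle, and was also lowest per kilobase with 8.87 CPM per kb. Rps20 had 222, 261 and 266 CPM in TEPP-46, against 230, 280 and 178 CPM in vehicle.

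Isoforms of ribosomal protein genes gave no call. Of 330 member isoforms tested, edgeR's quasi-likelihood test called 0 (background 0 of 33854, percent called 0), with 0.777 as the lowest adjusted p. Unadjusted p-values lay under 0.05 for 5 isoforms, all higher with TEPP-46, or 1.52%, where 5.77% of all tested isoforms passed in either direction and 1.87% were higher. DESeq2 called 0 member isoforms, where it called 0.442% of all isoforms. Of the 5, 4 belonged to Rpl10a and 1 to Rpl18. Isoforms of a gene share reads here, so the 4 may not be separate measurements. The Rpl18 isoform, Rpl18-203, had few raw counts, with 12, 14 and 14 in TEPP-46, against 9, 4 and 2 in vehicle. Rpl10a encodes a large-subunit protein near the exit of transfer RNA. Its isoform Rpl10a-203 had 157, 188 and 131 counts in TEPP-46, against 99, 133 and 101 in vehicle (raw counts, not scaled to library totals). Its main isoform Rpl10a-201 had 1584, 1631 and 1662 counts in TEPP-46, against 1410, 1925 and 1369 in vehicle.

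Isoform usage, the split of a gene's counts among its isoforms, was tested in 67 members, and 0 passed by Simes p-values of edgeR's diffSpliceDGE with Benjamini-Hochberg adjustment (background 0.0131% called). None had an unadjusted p under 0.05, where 0.641% of all tested genes did. Because isoforms share reads in this table, their split can stay the same whatever the usage. The lack of calls therefore does not show that usage was unchanged. Among these 67 members, the smallest unadjusted Simes p-values from the edgeR model fitted across all tested isoforms were those of Rpl18 (0.175), Rpl10a (0.338), Rps19bp1 (0.358), Rpl3 (0.433) and Rps9 (0.479), each with an adjusted p of 1.0.

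Rps24 is known for alternative exons at its 3′ end that set the last residues of the protein and are used differently between tissues. After a common exon of 111 bases (chr14:24493383-24493493), Rps24-202 goes on to an exon of 20 bases (chr14:24495430-24495449) and Rps24-205 to an exon of 18 bases (chr14:24494052-24494069). Rps24-210 goes on directly to the last exon, which starts at position 24495775. The transcripts are shown because they differ at this place alone in their coding part. Each line gives the last 18 bases of the common exon and the 12 bases after it in the spliced transcript (GRCm38, plus strand), with the rest of the coding sequence and the stop codon in capitals.
Rps24-202: gttggtgctggcaaaaagTGAgtggagatt
Rps24-205: gttggtgctggcaaaaagAAATGAaatacc
Rps24-210: gttggtgctggcaaaaagCCAAAGGAGTAG
The count of Rps24-202 was 3284, 3433 and 3384 in TEPP-46, against 3040, 3672 and 2840 in vehicle. That of Rps24-205 was 3204, 3313 and 3239 in TEPP-46, against 2939, 3462 and 2780 in vehicle. Rps24-210 had 3125, 3295 and 3214 in TEPP-46, against 2900, 3545 and 2673 in vehicle. The 3 counts were nearly equal in every library, although the transcripts end differently, so the table does not resolve which end was used. The usage test for Rps24 in edgeR gave an adjusted p of 1.0.

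The genes that surround ribosomal proteins in the translation pathway gave no call either. At an unadjusted p under 0.05, the 43 initiation factors had 0 genes higher and 3 lower, the 14 elongation and termination factors 0 and 0, and 53 biogenesis factors 1 and 5. The 24 genes of the mTORC1 pathway had 2 higher and 0 lower, and the 10 genes with S6 kinase symbols 1 and 0. Of 16 other mRNAs with a terminal oligopyrimidine, 0 were higher and 1 was lower. Over all tested genes, 1.95% were higher and 3.93% lower at that level. The medians of these lists lay between -0.04 and 0.07 on the log2 scale, against 0.01 for all tested genes.

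The gene with the smallest p in a list was in some cases clear of overlap but not past the adjustment over all genes. Over all tested genes, 11.4% had groups that did not overlap, and the genes below were picked for their small p. Eif3f, a subunit of initiation factor eIF3, had 13.8, 52.8 and 82.0 CPM in TEPP-46, against 133, 124 and 152 CPM in vehicle (log2 fold change -1.47, standard error 0.54, edgeR adjusted p = 0.789). All TEPP-46 libraries were below all vehicle libraries. Tcof1, which helps transcribe ribosomal RNA, had 24.9, 25.1 and 27.7 CPM in TEPP-46, against 19.9, 16.8 and 17.2 CPM in vehicle (0.52, standard error 0.17, adjusted p = 0.669). Gar1, a protein of small nucleolar ribonucleoproteins, had 7.14, 5.87 and 5.84 CPM in TEPP-46, against 10.7, 7.72 and 19.5 CPM in vehicle (-1.01, standard error 0.35, adjusted p = 0.694). Deptor, an inhibitor of mTOR, had 11.6, 8.89 and 6.41 CPM in TEPP-46, against 6.37, 4.21 and 3.22 CPM in vehicle (0.95, standard error 0.34, adjusted p = 0.714). Among S6 kinases, Rps6ka6 had 8.63, 5.69 and 5.09 CPM in TEPP-46, against 3.56, 3.86 and 3.03 CPM in vehicle (0.88, standard error 0.31, adjusted p = 0.714). Eif3j1, a loosely bound subunit of eIF3, had 21.6, 19.2 and 24.3 CPM in TEPP-46, against 28.5, 28.6 and 32.5 CPM in vehicle (-0.47, standard error 0.17, adjusted p = 0.716).

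Ribosomal proteins of mitochondria, which form a separate ribosome, did not follow the cytosolic ones. Their 78 genes took 0.672, 0.634 and 0.659% of counts in TEPP-46, against 0.658, 0.645 and 0.737% in vehicle. C4, the lowest library for the cytosolic genes, was the highest for the mitochondrial ones. The means were 0.655 ± 0.0191% with TEPP-46 and 0.680 ± 0.0498% with vehicle (SD, n = 3 each; two-sided exact permutation p = 0.7). At an unadjusted p under 0.05, 1 of the 78 was higher (Mrps10) and 1 lower (Mrps30), where 1.95% of all tested genes were higher and 3.93% lower.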

How the data were processed

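Read counts per gene and per isoform were deposited by the authors in 2 tables, per the file headers, with build GRCm38 and DESeq 1.10.1 named in the submitters' processing notes. For the aligner and counter, and for reads that match several isoforms, the method is not given in the sources used here. Column letters were read as TEPP-46 (T) and vehicle (C) from the group names alone, and 12 other columns of values per library were not used. CPM, the count divided by the library total and scaled to 1e+06, was computed here. The test of genes and isoforms was edgeR 4.0.16 under R 4.3.3 (filterByExpr, TMM, robust quasi-likelihood F test, group as the single term), with Benjamini-Hochberg adjustment over all features tested and calls at an adjusted p under 0.05. Alternatives were DESeq2 1.42.0, other scalings, no low-count filter, other denominators and leaving out each library. Single values were compared by exact two-sided permutation. Lengths and coordinates came from the GENCODE annotation of GRCm38.

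The members and lists were chosen with earlier results of these data known. The naming rule took the 5 members with the smallest p in each direction, the 5 highest and 5 lowest by CPM, the 5 most variable, the P-stalk, paralogues, list genes with the smallest p, and the 10 most similar genes. Genes named outside it (Rps28, Rpl35, Rpl36 and isoforms with equal counts) were chosen after their values were seen, as was the length limit of 400 bases. A few genes within this rule are not reported here.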

Additional observations from a re-analysis of the deposited data

How the results depend on the processing

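No paired analysis was possible because the column numbers (1, 2 and 4 against 1, 2 and 3) do not match the numbered samples of the labels. No member gene, isoform or isoform usage was called by any of the alternatives run, with 0 calls whichever library was left out. The median log2 fold change of the members was 0.02 to 0.06 under the other scalings, DESeq2, no low-count filter and the most abundant isoform alone (the last chosen after seeing the data), and -0.02 to 0.14 when each library was left out. The difference in the members' share of counts ran from -0.0163 to 0.811 percentage points over the left-out libraries and turned negative without C4 (-0.0163) and without T3 (-0.0094). The cause was not tested. The share's other alternatives gave 0.195 to 0.377 points. With 3 libraries a group and standard errors near 0.13, changes of that size in a member were far below detection. Larger ones could also go uncalled, as Tcof1 had a log2 fold change of 0.52, a standard error of 0.17 and an edgeR adjusted p of 0.669.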
